A study of Mus musculus with 12 samples.

Results

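Glycogen is the stored form of glucose in muscle, and 9 genes of its synthesis and breakdown were followed across RNA sequencing libraries of mouse tibialis anterior, a shin muscle made up mostly of fast fibres. The genes were chosen by name: glycogenin (Gyg), UDP-glucose pyrophosphorylase (Ugp2), muscle glycogen synthase (Gys1), the branching enzyme (Gbe1), the phosphatase targeting subunit Ppp1r3c, muscle glycogen phosphorylase (Pygm), 2 subunits of phosphorylase kinase (Phka1 and Phkg1) and the lysosomal acid alpha-glucosidase (Gaa). All 9 were found among the 22607 genes of the count table, and all 9 were among the 16007 genes that passed the filter on low counts. On GRCm38 (GENCODE) they are protein-coding genes at chr7:45434844-45456619 (Gys1), chr16:70313949-70569716 (Gbe1), chr3:20122084-20155317 (Gyg), chr11:21321138-21371201 (Ugp2), chr19:6384399-6398459 (Pygm), chr11:119267887-119285454 (Gaa), chrX:102513975-102644246 (Phka1), chr5:129863421-129898549 (Phkg1) and chr19:36731731-36736653 (Ppp1r3c). The muscles came from C57BL/6 males aged 13 weeks and were transduced with a Crtc2 expression vector or an empty one with GFP. Crtc2 binds the transcription factor Creb1 and boosts its activity. The diet was alternate day fasting (ADF) for 3 rounds or food ad libitum. The 12 libraries fall into 4 groups of 3: ADF with Crtc2, ADF with GFP, fed with Crtc2 and fed with GFP. All 4 groups thus carry a vector, and no untransduced muscle was analysed here. The type of vector, its promoter, and whether the last day before sampling was a fasting or a feeding day are not given in the sources used here. Whether the 3 libraries of a group came from separate animals, or Crtc2 and GFP muscles from the same ones, is not given either, so that p-values cover the spread among these libraries only, part of which may be technical.

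Glycogen is built on glycogenin, a protein that adds glucose to itself from UDP-glucose, the sugar donor made by Ugp2. Glycogen synthase lengthens the chains and the branching enzyme adds branch points, while targeting subunits such as Ppp1r3c bring protein phosphatase 1 to the particle, where it activates the synthase and inactivates phosphorylase. In contraction or under adrenaline, phosphorylase kinase switches on phosphorylase, which cuts glucose 1-phosphate from chain ends in the cytosol. A separate route runs through the lysosome, where acid alpha-glucosidase degrades glycogen to glucose. Loss of several of these enzymes causes human glycogen storage diseases of muscle, Pompe disease for GAA and McArdle disease for PYGM.

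Because Crtc2 acts with Creb1 at the cAMP response element (CRE), the stretch before each gene's start was read from RefSeq (build GRCm38.p6). All 9 genes matched, with 10 promoters in total, since Ugp2 has 2. Printed 5′ to 3′ are those of Gys1 (chr7:45434589-45434838, plus strand), Ppp1r3c (chr19:36736629-36736854, minus strand) and Gaa (chr11:119267713-119267911, plus strand). The synthase, the targeting subunit and the lysosomal enzyme had the largest estimates between diets, averaged over both vectors. The last 2 promoters end early, so that few transcribed bases are shown. Capitals mark the only motif match found in the members' promoters.
Gys1: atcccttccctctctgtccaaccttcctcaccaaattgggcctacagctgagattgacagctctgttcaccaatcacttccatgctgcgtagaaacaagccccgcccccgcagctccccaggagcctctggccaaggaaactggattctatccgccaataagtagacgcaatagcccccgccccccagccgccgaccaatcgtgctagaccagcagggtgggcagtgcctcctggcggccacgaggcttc
Ppp1r3c: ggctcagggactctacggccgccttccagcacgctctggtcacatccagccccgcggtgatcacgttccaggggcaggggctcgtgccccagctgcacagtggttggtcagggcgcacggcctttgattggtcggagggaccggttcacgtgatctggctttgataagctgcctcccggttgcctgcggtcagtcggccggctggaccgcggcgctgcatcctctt
Gaa: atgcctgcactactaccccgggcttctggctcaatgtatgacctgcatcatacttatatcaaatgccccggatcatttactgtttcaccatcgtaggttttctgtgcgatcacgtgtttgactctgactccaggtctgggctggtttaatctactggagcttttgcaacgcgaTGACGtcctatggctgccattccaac

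Over the 250 bases before the start and on both strands, the full CRE (TGACGTCA) was in 0 of the 9 genes, against 1.55% of 32851 mouse promoters. The half-site motif TGACG, which is also contained in the full CRE, was in 1 of the 9, Gaa, where it lies 77 bases before the RefSeq start, against 17.8% of all promoters. The last 76 bases of that window lie inside the Gaa gene as GENCODE places it, so the motif sits at the GENCODE start. The Phkg1 window lies wholly inside its GENCODE gene, and neither Ugp2 start was matched to a GENCODE transcript. The FoxO motif (GTAAACA) was in 0 of the 9, against 3.17% of all promoters. FoxO factors are active in fasted muscle, which is why the motif was searched. No match says only that these letters are not in this window.

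Total counts ranged from 24232450 to 34610417 per library, with 14313 to 17226 genes detected. Crtc2 itself had 42.8, 40.6 and 31.4 CPM (counts scaled to library size) in ADF Crtc2 muscle, against 19.7, 16.1 and 23.6 CPM in ADF GFP muscle. In fed Crtc2 muscle it had 64.9, 58.2 and 77.9 CPM, against 29.2, 17.3 and 24.02 CPM in fed GFP muscle. Crtc2 was thus higher in every Crtc2 library than in every GFP library, by 1.23 ± 0.20 on the log2 scale (SE) averaged over both diets (edgeR quasi-likelihood adjusted p = 0.00578). Within a single diet Crtc2 did not pass, at 0.95 ± 0.27 under ADF (edgeR adjusted p = 0.127) and 1.51 ± 0.28 in fed muscle (0.134). Its partner Creb1 was at 7.58 to 14.2 CPM in ADF Crtc2 muscle, 10.02 to 11.4 in ADF GFP muscle, 15.5 to 20.5 in fed Crtc2 muscle and 9.02 to 14.4 in fed GFP muscle, and did not pass the test in any comparison. The 8 markers of skeletal muscle fibres summed to 174600 to 188300 CPM in ADF Crtc2 muscle, 163500 to 200800 in ADF GFP muscle, 144600 to 209400 in fed Crtc2 muscle and 156400 to 192800 in fed GFP muscle. Defining genes of the labelled tissue were thus abundant in every library. Of these 8, Acta1 and Atp2a1 were higher and Mylpf lower under ADF with either vector. The 8 slow fibre markers summed to 768 to 1062 CPM in ADF Crtc2 muscle, 957 to 1370 in ADF GFP muscle, 1072 to 2764 in fed Crtc2 muscle and 868 to 1624 in fed GFP muscle, with Tnnt1 called lower under ADF with either vector. Most of each sum came from Myh2, a myosin of fast type IIa fibres, so the sums do not measure slow fibres. Myh2 had 719 to 1069, 625 to 1093, 848 to 2215 and 613 to 1040 CPM in the same 4 groups. Sums were scaled by library totals and single genes by TMM. Summed macrophage markers did not overlap between vectors: 148 to 243 CPM in ADF Crtc2 muscle and 513 to 866 in ADF GFP muscle, and 255 to 309 in fed Crtc2 muscle and 433 to 471 in fed GFP muscle. Of these 8 markers, 4 were called lower with Crtc2 under ADF and 0 were called in fed muscle. In bulk samples, fewer cells of a type and less RNA per cell cannot be told apart, and the part of these markers in the results below was not tested.

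Set against one another per length, as TPM, a share of the library corrected for exon length, Pygm was the most abundant of the 9 messages in all 4 groups. It stood at 7115 ± 726 TPM in ADF Crtc2 muscle, 7239 ± 585 in ADF GFP muscle, 4496 ± 919 in fed Crtc2 muscle and 4592 ± 634 in fed GFP muscle (SD, n = 3 each). Ugp2 was next with 989 ± 101, 872 ± 208, 463 ± 219 and 364 ± 83 TPM in the same 4 groups, overlapping Gyg in both fed groups. Gbe1 had the lowest mean in each group, with 47.9 ± 4.3, 58.8 ± 11.5, 29.6 ± 18.01 and 20.4 ± 10.3 TPM. Phosphorylase mRNA therefore stood well above that of every synthetic enzyme, in every library.

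The order in between was less sharp. Gyg and Gys1 overlapped in both ADF groups and in fed Crtc2 muscle, at 572 and 551 TPM in ADF Crtc2 muscle, 479 and 594 in ADF GFP muscle and 374 and 252 in fed Crtc2 muscle. Phka1 and Ppp1r3c overlapped under ADF, at 306 and 279 TPM in ADF Crtc2 muscle and 282 and 249 in ADF GFP muscle. In fed muscle Ppp1r3c lay lower, at 90.9 TPM with Crtc2 and 89.4 with GFP, and its values overlapped those of Gaa, at 78.0 and 43.0 TPM. Phkg1, the catalytic subunit of phosphorylase kinase, was at 142, 127, 166 and 142 TPM in ADF Crtc2, ADF GFP, fed Crtc2 and fed GFP muscle. With the longest transcript in place of all exons these became 302, 272, 347 and 297 TPM, so its rank depends on the length used. Neighbours whose ranges also overlapped were Ppp1r3c and Gaa in ADF Crtc2 muscle, Gys1 and Phka1 in both fed groups, and Gyg and Phka1, Phkg1 and Ppp1r3c, and Gaa and Gbe1 in fed GFP muscle.

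**Figure D1:**
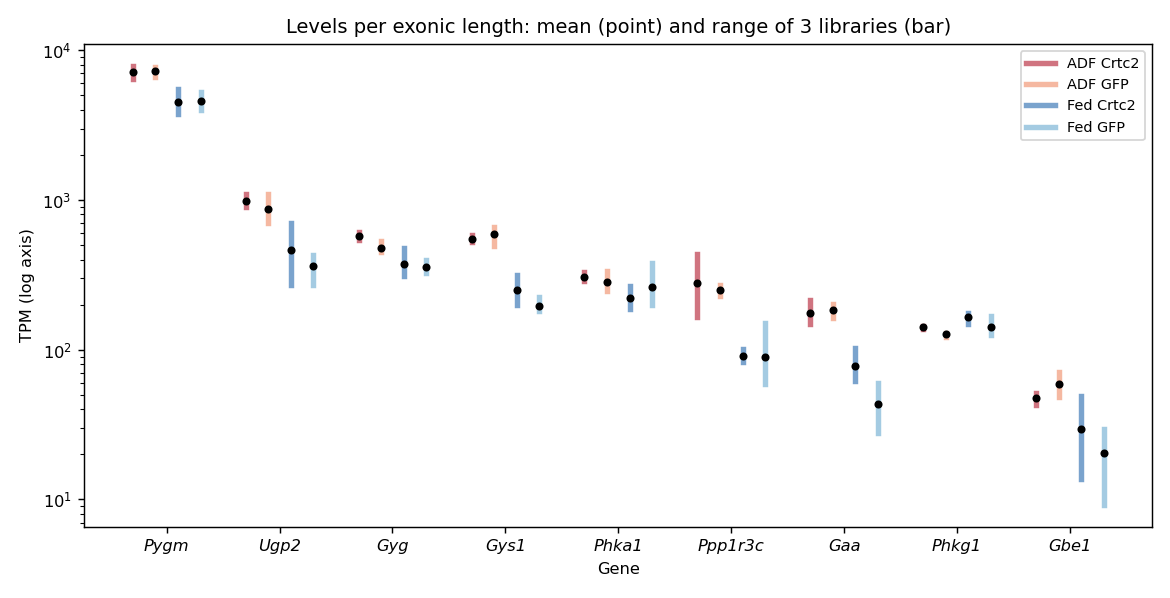
TPM (log axis) of the 9 genes, ordered by their mean in ADF Crtc2 muscle; black points are means and coloured bars the range of 3 libraries in ADF Crtc2, ADF GFP, fed Crtc2 and fed GFP muscle. Pygm lies above all other genes in each group and Gbe1 has the lowest mean in each.

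The muscle isoforms made up nearly all of their families per length. Gys1 was at least 99.3% of Gys1 and Gys2, the liver synthase, in every library. Pygm was at least 99.77% of the 3 phosphorylases, with Pygb and Pygl, the brain and liver forms, making up the rest. Phkg1 made up 94.5 to 98.5% of Phkg1 and Phkg2. For the regulatory alpha subunit the share differed by diet: Phka1 was 99.1 ± 0.5% in ADF Crtc2 muscle against 95.9 ± 0.6% in fed Crtc2 muscle, and 99.1 ± 0.5% in ADF GFP muscle against 96.5 ± 1.3% in fed GFP muscle (SD, n = 3 each). The ranges of the ADF and fed shares did not overlap with either vector, and the liver-type subunit Phka2 is the member of the pair that changed, as given below.

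Most of the 9 genes were higher under alternate day fasting, on the synthetic side as well as in the lysosomal route. Averaged over both vectors, 7 of 9 were higher under ADF and 0 lower: Gys1, Gbe1, Gyg, Ugp2, Ppp1r3c, Pygm and Gaa. The largest estimates were those of Gaa (3.19-fold), Ppp1r3c (3.02-fold) and Gys1 (2.70-fold). On the log2 scale they were 1.67 ± 0.21, 1.59 ± 0.30 and 1.44 ± 0.13 (SE), and their order was not tested. In Crtc2 muscle alone Ppp1r3c was above Gaa, at 3.42-fold against 2.48-fold. The 2 subunits of phosphorylase kinase did not pass. By this test 9.38% of all genes were higher and 8.64% lower, and among the 1568 genes at or above the lowest mean of the 9 (81.4 CPM), 41.7% were higher and 14.9% lower. The median log2 fold change was 1.20 over the 9 genes and -0.09 over all genes tested. No median was computed for genes at or above 81.4 CPM alone. All 7 calls held with each of the 12 libraries left out in turn, at adjusted p-values up to 0.0205 (edgeR, Gbe1 without fed GFP replicate 3). Single markers of other cell types were also called between diets, 1 gene in each list named here, while the other tested genes of those lists did not pass. Summed adipocyte markers overlapped between diets in Crtc2 muscle only, and summed fibroblast markers overlapped with both vectors. The 6 adipocyte markers summed to 16.8 to 54.3 CPM in ADF Crtc2 muscle and 9.51 to 25.5 in fed Crtc2 muscle, and to 25.6 to 52.3 in ADF GFP muscle and 8.54 to 22.3 in fed GFP muscle, with Cfd called higher in GFP muscle. The 6 fibroblast markers summed to 665 to 1097 CPM in ADF Crtc2 muscle and 599.5 to 2021 in fed Crtc2 muscle, and to 1464 to 3680 in ADF GFP muscle and 785 to 2362 in fed GFP muscle, with Dcn called higher in GFP muscle. In Crtc2 muscle 1 marker each of endothelium (Kdr, of 6), T cells (Cd3g, of 5) and B cells (Cd79b, of 4) was called lower under ADF. The part of these markers in the diet results was not tested.

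Within the Crtc2 muscles, 6 of 9 rose under ADF and 0 fell, where 6.3% of all genes were higher and 4.68% lower. Among genes at or above 81.4 CPM those shares were 35.8% and 7.02%. Within the GFP muscles, 4 of 9 rose and 0 fell, against 4.06% of all genes higher and 3.06% lower, and 21.3% and 10.2% of those at or above 81.4 CPM. The median of the 9 was 0.92 on the log2 scale in Crtc2 muscle, against -0.13 over all genes, and 1.20 in GFP muscle, against -0.01. Here too, genes at or above 81.4 CPM have no median of their own. Scaled by library totals, the medians over all genes moved to -0.43 in Crtc2 muscle and -0.11 in GFP muscle. Calls then split into 511 higher and 1234 lower in Crtc2 muscle, in place of 1009 and 749, and into 476 and 596 in GFP muscle, in place of 650 and 490. The members counted as higher were then 5 and 4, with 0 lower in either.

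**Figure D2:**
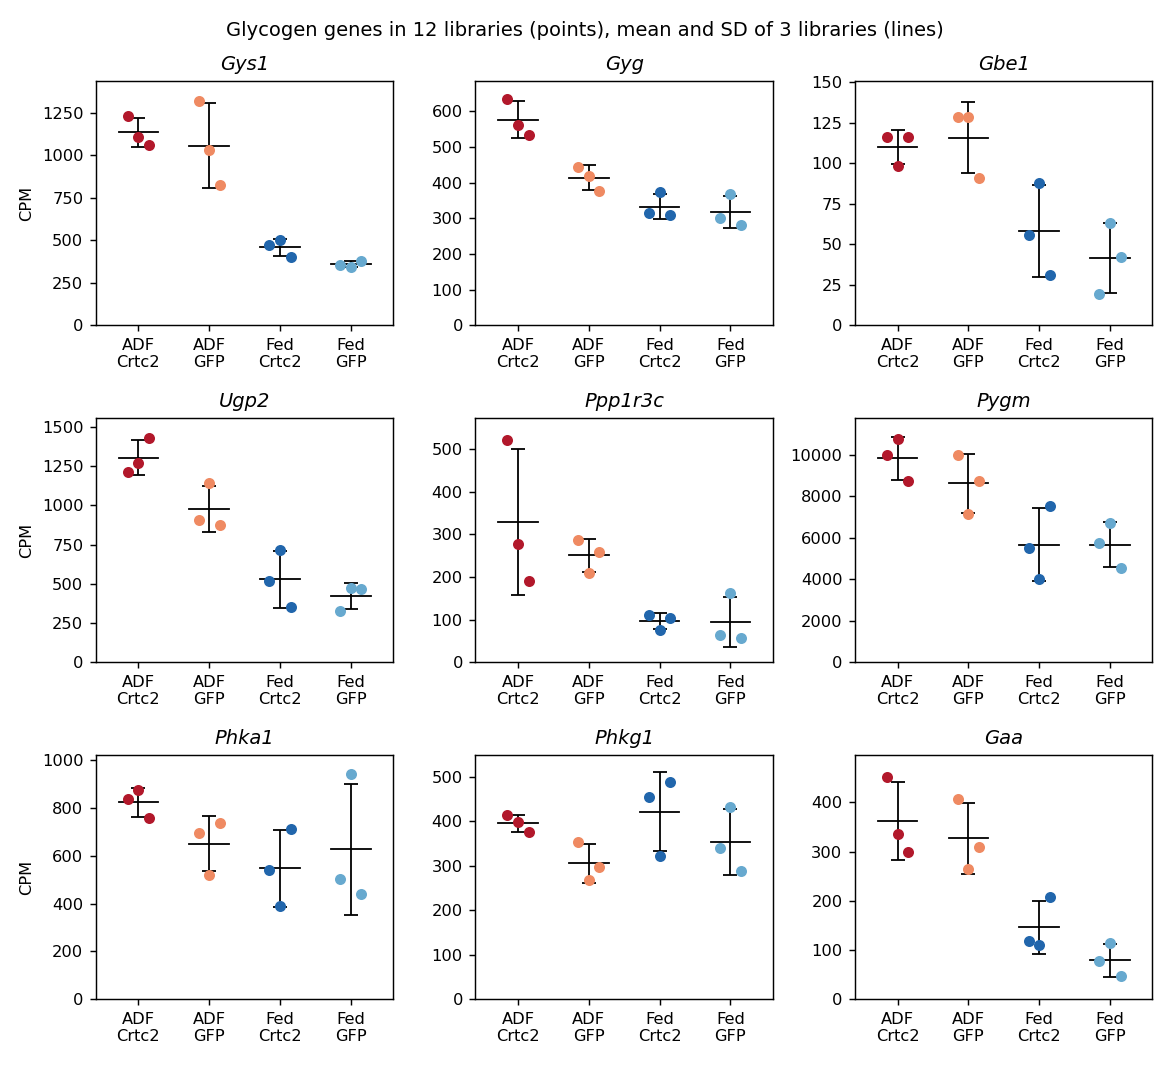
CPM of each of the 9 genes in the 12 libraries (points), with the mean and SD of 3 libraries (black lines), for ADF Crtc2, ADF GFP, fed Crtc2 and fed GFP muscle; each axis starts at 0. Within each vector, ADF and fed libraries do not overlap for Gys1, Gyg, Gbe1, Ugp2, Ppp1r3c, Pygm and Gaa. They overlap for Phkg1 with both vectors and for Phka1 in GFP muscle. The share of all genes that separate in this way is not given here.

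Gys1 makes the linear chains and was the most tightly separated of the set. It had 1231, 1109 and 1061 CPM in ADF Crtc2 muscle, against 472, 499.9 and 402 CPM in fed Crtc2 muscle. GFP muscle gave 1319, 1028 and 824 CPM under ADF, against 351, 344 and 378 CPM in fed libraries. Every ADF library lay above every fed library. Here and for the genes below, the share of all genes whose diets separate is not given, so separation alone does not set a gene apart. The log2 fold change was 1.31 ± 0.18 (SE) in Crtc2 muscle (edgeR adjusted p = 3.76e-05) and 1.56 ± 0.18 in GFP muscle (7.56e-06), and both calls held without any 1 library. Gys1 shares 310 exonic bases with Ruvbl2 on the opposite strand, a gene with a mean of 832 counts where Gys1 had 8923 to 34394.

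Gyg, the primer of the glycogen particle, had 635, 563 and 533 CPM in ADF Crtc2 muscle, against 315, 373 and 310.3 CPM in fed Crtc2 muscle. In GFP muscle the values were 445, 418 and 376 CPM under ADF, against 301, 369 and 282 CPM in fed libraries. The gap was wide in Crtc2 muscle and narrow in GFP muscle, where the lowest ADF library was just above the highest fed one. Gyg rose by 0.79 ± 0.17 on the log2 scale in Crtc2 muscle (edgeR adjusted p = 0.00269, and 0.05004 when scaled by library totals). In GFP muscle the difference was 0.38 ± 0.16 (adjusted p = 0.199), which did not pass.

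Ugp2, the maker of UDP-glucose, had 1213, 1268 and 1426 CPM in ADF Crtc2 muscle, against 517, 716 and 353 CPM in fed Crtc2 muscle. The GFP muscles held 906, 1143 and 873 CPM under ADF, against 327.5, 476 and 465 CPM in fed libraries. The ADF and fed libraries did not overlap with either vector. It rose by 1.30 ± 0.22 on the log2 scale in Crtc2 muscle (edgeR adjusted p = 0.000352) and by 1.20 ± 0.22 in GFP muscle (0.00116), and both calls held without any 1 library.

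Gbe1 adds the branch points and varied widely among fed libraries. It had 116, 98.1 and 116 CPM in ADF Crtc2 muscle, against 56.0, 87.6 and 31.1 CPM in fed Crtc2 muscle. In GFP muscle it had 128.5, 128.4 and 90.6 CPM under ADF, against 19.4, 62.8 and 42.1 CPM in fed libraries. The groups were separate with each vector, but the fed values spread widely. In Crtc2 muscle the log2 difference was 0.92 ± 0.38 and did not pass (edgeR adjusted p = 0.145); it passed without fed Crtc2 replicate 2 (0.0385), without fed GFP replicate 1 (0.0402) and without the filter on low counts (0.0045). Gbe1 rose by 1.48 ± 0.38 in GFP muscle (edgeR adjusted p = 0.0266). That call was lost without ADF GFP replicate 1 (0.0943), ADF GFP replicate 2 (0.0904) or fed GFP replicate 3 (0.109), and with scaling by library totals (0.0539).

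Ppp1r3c, also called protein targeting to glycogen, had 521, 277 and 189.7 CPM in ADF Crtc2 muscle, against 111, 74.6 and 104 CPM in fed Crtc2 muscle. In GFP muscle it had 286, 209.8 and 258 CPM under ADF, against 64.1, 161.5 and 56.9 CPM in fed libraries. ADF Crtc2 replicate 1 and fed GFP replicate 2 stood above the rest of their groups, and ADF and fed libraries did not overlap with either vector. Ppp1r3c rose by 1.77 ± 0.42 on the log2 scale in Crtc2 muscle (edgeR adjusted p = 0.0161). The call was lost without ADF Crtc2 replicate 1 (0.0516) and without fed Crtc2 replicate 1 (0.0502), 2 (0.0909) or 3 (0.0762). In GFP muscle the difference of 1.42 ± 0.42 did not pass (adjusted p = 0.0629), and without fed GFP replicate 2 it was 2.02 and passed (0.00147). It also passed there without ADF Crtc2 replicate 1 (0.0204) or 3 (0.0418), when scaled by library totals (0.0375), without the filter on low counts (3.38e-08), with DESeq2 (0.0472) and with the 6 GFP libraries alone (0.0413).

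Pygm, which releases glucose 1-phosphate from glycogen, had 10010, 10770 and 8728 CPM in ADF Crtc2 muscle, against 5503, 4000 and 7535 CPM in fed Crtc2 muscle. GFP muscles had 9984, 7160 and 8739 CPM under ADF, against 5741, 6706 and 4542 CPM in fed libraries. Within each vector every ADF library was above every fed one, by a small gap in GFP muscle. Across vectors, ADF GFP replicate 2 (7160 CPM) lay below fed Crtc2 replicate 3 (7535 CPM). Pygm rose by 0.79 ± 0.21 on the log2 scale in Crtc2 muscle (edgeR adjusted p = 0.0149), a call lost without ADF Crtc2 replicate 2 (0.0651), fed Crtc2 replicate 1 (0.0559) or fed Crtc2 replicate 2 (0.0765). In GFP muscle the difference was 0.61 ± 0.21 (0.0855), which passed with DESeq2 (0.0472), without the filter on low counts (0.0411), and without fed Crtc2 replicate 2 (0.0420) or 3 (0.0394).

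Phka1, the muscle alpha subunit through which phosphorylase kinase is regulated, had 834.5, 875 and 757 CPM in ADF Crtc2 muscle, against 539, 389 and 712 CPM in fed Crtc2 muscle. In GFP muscle it had 693, 519 and 738 CPM under ADF, against 502, 941 and 439 CPM in fed libraries. The diets did not overlap in Crtc2 muscle and overlapped in GFP muscle, where fed replicate 2 was the highest of all 12 libraries. The log2 difference was 0.59 ± 0.25 in Crtc2 muscle (edgeR adjusted p = 0.161, 0.0453 without the filter on low counts) and 0.05 ± 0.25 in GFP muscle (0.956). Averaged over both vectors it was 0.32 ± 0.18 (0.245), and without fed GFP replicate 2 it was 0.50 and passed (0.0232).

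Phkg1, the catalytic gamma subunit, had 414, 398 and 376 CPM in ADF Crtc2 muscle, against 455, 323 and 489 CPM in fed Crtc2 muscle. In GFP muscle it had 354, 268 and 297 CPM under ADF, against 340.1, 433 and 288.5 CPM in fed libraries. The groups overlapped with both vectors. The averaged log2 difference was -0.15 ± 0.13 (95% interval -0.43 to 0.13, edgeR adjusted p = 0.497), so a modest decrease is within the interval. When scaled by library totals the value was -0.34 and passed (0.0336). Phkg1 shares 630 exonic bases with Sumf2 on the opposite strand, a gene with a mean of 372 counts where Phkg1 had 8271 to 13212.

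Gaa, the lysosomal enzyme, had 451, 336 and 299 CPM in ADF Crtc2 muscle, against 119, 111 and 208 CPM in fed Crtc2 muscle. In GFP muscle it had 406, 264.5 and 309 CPM under ADF, against 77.5, 114 and 47.0 CPM in fed libraries. No fed library reached the lowest ADF library of either vector. Gaa rose by 1.31 ± 0.30 on the log2 scale in Crtc2 muscle (edgeR adjusted p = 0.00854) and by 2.04 ± 0.31 in GFP muscle (0.000488). The Crtc2 call was lost without fed Crtc2 replicate 2 (0.0525), and the GFP call held without any 1 library, at 0.00735 or less.

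**Figure D3:**
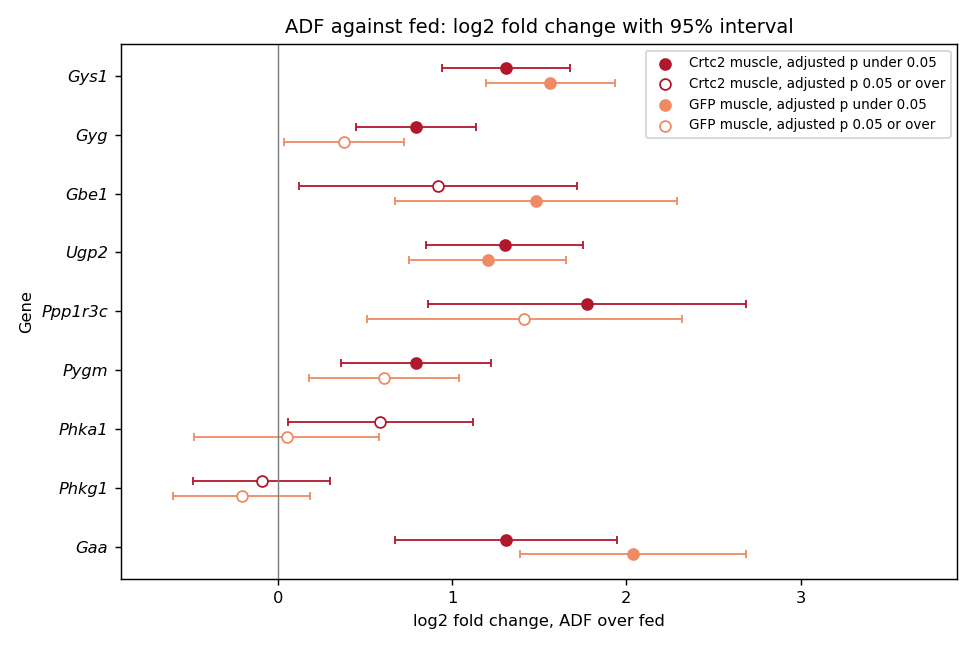
log2 fold change of ADF over fed with its 95% interval for the 9 genes, in Crtc2 muscle (dark) and GFP muscle (light); filled points have an adjusted p under 0.05. Filled points are Gys1, Gyg, Ugp2, Ppp1r3c, Pygm and Gaa in Crtc2 muscle and Gys1, Gbe1, Ugp2 and Gaa in GFP muscle.

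Relative to Pygm, several of the messages also differed between diets. Within a library, the log2 ratio of each of the other 8 genes to Pygm needs no scaling between libraries, and these ratios were compared after the data had been seen. The test was an exact two-sided permutation test of diet within each vector, over 400 assignments, for which 0.005 is the smallest p it can give, with adjustment over the 8 ratios. The 8 ratios share Pygm. The Gaa to Pygm ratio was -5.00 to -4.47 in the 6 ADF libraries, against -6.60 to -5.17 in the 6 fed libraries, a difference of 1.00 (exact p = 0.005, adjusted p = 0.01). For Ppp1r3c the difference was 0.90 (0.005, adjusted 0.01) and for Gys1 0.70 (exact permutation p = 0.025, adjusted 0.04). Diets overlapped for both: Ppp1r3c ratios were -5.52 to -4.26 in ADF libraries, against -6.48 to -5.38 in fed libraries, and Gys1 ratios were -3.41 to -2.80 in ADF libraries, against -4.29 to -3.00 in fed libraries. The lysosomal enzyme, the targeting subunit and the synthase were thus higher on average relative to phosphorylase under ADF. For Gaa the difference was 0.51 in Crtc2 muscle and 1.49 in GFP muscle, and for Gys1 0.48 in Crtc2 muscle (exact permutation p = 0.4) and 0.93 in GFP muscle (0.1). Within 1 vector the smallest exact p that 3 against 3 libraries allow is 0.1.

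The 2 subunits of phosphorylase kinase among the 9 genes, Phka1 and Phkg1, were lower under ADF relative to the message of their substrate. The beta subunit Phkb was not in this ratio test. Its log2 difference was 1.01 in Crtc2 muscle and 0.79 in GFP muscle, against 0.79 and 0.61 for Pygm. The Phkg1 to Pygm ratio was -4.88 to -4.54 in ADF libraries, against -4.08 to -3.60 in fed libraries, a difference of -0.86 with no overlap (exact permutation p = 0.005, adjusted p = 0.01). For Phka1 the ratio was -3.85 to -3.53 in ADF libraries, against -3.52 to -2.83 in fed libraries, a difference of -0.35 (exact permutation p = 0.005, adjusted p = 0.01). The remaining 3 ratios did not pass: Gbe1 at 0.61 (exact permutation p = 0.215), Ugp2 at 0.56 (0.105) and Gyg at -0.13 (0.525).

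**Figure D4:**
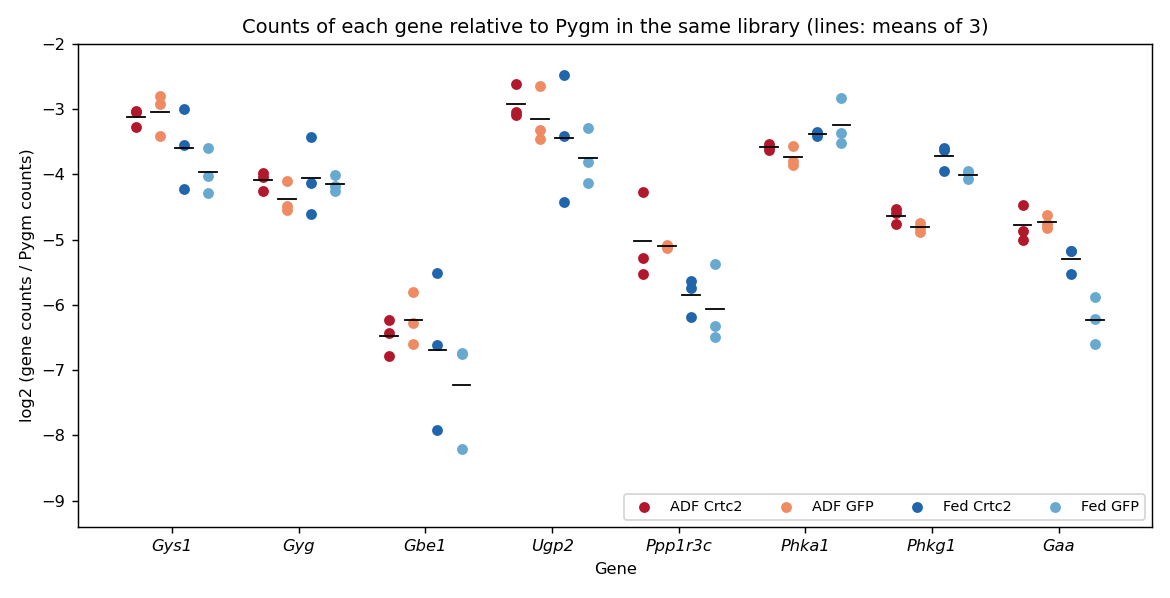
log2 ratio of the counts of 8 genes to those of Pygm in the same library, as points for ADF Crtc2, ADF GFP, fed Crtc2 and fed GFP muscle with group means as black lines; the ratio is not corrected for gene length. Phkg1 ratios lie between -4.88 and -4.54 in ADF libraries, below all fed libraries, which lie between -4.08 and -3.60.

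Other enzymes and subunits of the pathway were taken from a list of names, 17 in all, of which 16 were tested. With either vector 3 rose under ADF (Phkb, Ppp1r3a and Epm2a) and 1 fell (Phka2). Over all genes, 6.3% were higher and 4.68% lower in Crtc2 muscle, and 4.06% and 3.06% in GFP muscle. Among genes at or above 81.4 CPM, a level that some genes of the list do not reach, 35.8% were higher and 7.02% lower in Crtc2 muscle. In GFP muscle those shares were 21.3% and 10.2%. Phkb, the beta subunit of phosphorylase kinase, had 526, 507 and 429 CPM in ADF Crtc2 muscle, against 174, 210.3 and 339.8 CPM in fed Crtc2 muscle. It rose by 1.01 ± 0.24 on the log2 scale in Crtc2 muscle (edgeR adjusted p = 0.00681) and by 0.79 ± 0.24 in GFP muscle (0.0446). Of the muscle subunits of that kinase, then, the beta subunit passed and Phka1 and Phkg1 did not.

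Ppp1r3a, the targeting subunit of striated muscle, had 348, 353.5 and 391.5 CPM in ADF Crtc2 muscle, against 179, 218 and 135 CPM in fed Crtc2 muscle. It rose by 1.04 ± 0.21 in Crtc2 muscle (edgeR adjusted p = 0.00235) and by 1.24 ± 0.21 in GFP muscle (0.000780). Epm2a, the glycogen phosphatase laforin, whose loss causes Lafora disease in humans, rose by 1.395 ± 0.23 in Crtc2 muscle (0.000251) and by 0.84 ± 0.22 in GFP muscle (0.0229). Phka2 was low throughout, with 4.03 to 11.1 CPM in ADF Crtc2 muscle against 18.2 to 24.02 in fed Crtc2 muscle, and 2.66 to 7.20 in ADF GFP muscle against 15.5 to 24.8 in fed GFP muscle. It fell by 1.702 ± 0.49 on the log2 scale in Crtc2 muscle (0.0266) and by 1.88 ± 0.49 in GFP muscle (0.0209). Stbd1, a glycogen-binding protein linked to the lysosomal route, was at 94.8 to 127 CPM in ADF Crtc2 muscle against 62.2 to 107 in fed Crtc2 muscle, and at 51.7 to 83.0 in ADF GFP muscle against 60.8 to 144 in fed GFP muscle, and did not pass (0.557 and 0.391). Over the 16 genes the median log2 fold change was 0.047 in Crtc2 muscle and 0.35 in GFP muscle. In Crtc2 muscle 0 genes of the list fell without ADF Crtc2 replicate 1 or 2, or fed Crtc2 replicate 1 or 3. In GFP muscle 1 gene in place of 3 rose without ADF GFP replicate 1, 2 or 3 or fed GFP replicate 1 or 3, and with the 6 GFP libraries fitted alone. There 2 rose when scaled by library totals and 2 with a replicate block. In GFP muscle 0 fell without ADF GFP replicate 2 or 3 or fed GFP replicate 1.

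Of 14 kinases, phosphatases and signalling genes that act on these enzymes, 9 rose and 1 fell under ADF in Crtc2 muscle, and 6 rose and 1 fell in GFP muscle. The count of 6 was 3 without ADF GFP replicate 1 and 3 without fed GFP replicate 3. Over all genes, 6.3% were higher and 4.68% lower in Crtc2 muscle, and 4.06% and 3.06% in GFP muscle. Among genes at or above 81.4 CPM, a level that some of the 14 do not reach, 35.8% were higher and 7.02% lower in Crtc2 muscle. In GFP muscle those shares were 21.3% and 10.2%. Both isoforms of glycogen synthase kinase 3, which phosphorylates and restrains the synthase, rose with both vectors: Gsk3a by 0.94 ± 0.23 and Gsk3b by 0.99 ± 0.23 on the log2 scale in Crtc2 muscle (edgeR adjusted p = 0.0109 and 0.00690), and by 0.93 ± 0.23 and 1.30 ± 0.23 in GFP muscle (0.0167 and 0.00121). Of the 3 catalytic subunits of protein phosphatase 1, which acts in the opposite sense, 2 rose with both vectors: Ppp1ca by 0.95 ± 0.19 and Ppp1cb by 1.14 ± 0.21 in Crtc2 muscle (0.00221 and 0.000916), and by 0.69 ± 0.19 and 1.15 ± 0.21 in GFP muscle (0.0296 and 0.00142). The third, Ppp1cc, did not pass, at 0.77 ± 0.43 in Crtc2 muscle (0.292) and -0.34 ± 0.43 in GFP muscle (0.764).

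Among subunits of AMP-activated protein kinase, the catalytic Prkaa2 rose by 0.98 ± 0.29 in Crtc2 muscle (edgeR adjusted p = 0.0383) and by 1.33 ± 0.30 in GFP muscle (0.00960). Prkab2, a beta subunit that binds glycogen, rose by 1.58 ± 0.31 in Crtc2 muscle (0.00352), while the difference of 0.90 ± 0.31 in GFP muscle did not pass (0.103). Prkag3 went the other way. This gamma subunit is typical of fast muscle, and mutations in it raise muscle glycogen in pigs. It had 80.2, 63.6 and 71.2 CPM in ADF Crtc2 muscle, against 218, 214.5 and 387 CPM in fed Crtc2 muscle. With GFP it had 58.5, 54.7 and 72.5 CPM under ADF, against 340.2, 276 and 173 CPM in fed libraries. It fell by 1.93 ± 0.25 in Crtc2 muscle (2.6e-05) and by 2.09 ± 0.25 in GFP muscle (1.9e-05), 3.81-fold and 4.25-fold, with no overlap between the diets.

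For the insulin receptor Insr the log2 difference was 0.65 ± 0.24 in Crtc2 muscle (edgeR adjusted p = 0.0957), which did not pass, and it rose by 0.85 ± 0.24 in GFP muscle (0.0352). Akt2, the kinase downstream of it, rose by 1.22 ± 0.21 in Crtc2 muscle (0.000469), with 0.47 ± 0.21 in GFP muscle (0.204). Prkacb, a catalytic subunit of protein kinase A, rose by 1.38 ± 0.32 in Crtc2 muscle (0.00578), with 0.62 ± 0.31 in GFP muscle (0.270). Ppp1r2, an inhibitor of protein phosphatase 1, rose by 0.79 ± 0.25 in Crtc2 muscle (0.0413), with 0.32 ± 0.24 in GFP muscle (0.536). When scaled by library totals, 4 of the 9 rises in Crtc2 muscle passed. Genes called with 1 vector and not the other are not shown to differ between vectors, and 0 genes passed the interaction test.

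None of the 9 genes passed the test of Crtc2 against GFP, with either diet. Crtc2 itself did not pass within either diet, as given above, so not passing does not show that a gene was unchanged. Under ADF, Crtc2 against GFP gave 0 of 9 members (1 at an unadjusted p under 0.05), where 0.075% of all genes were higher and 0.65% lower. The exception at an unadjusted p was Gyg, higher by 0.48 ± 0.16 (95% interval 0.14 to 0.82, edgeR adjusted p = 0.240), with every ADF Crtc2 library above every ADF GFP library. DESeq2 called Gyg in that comparison (adjusted p = 0.0318). The intervals of the other 8 all held 0 and differed in width. They were -0.26 to 0.46 for Gys1 and -0.24 to 0.62 for Pygm, and as wide as -0.86 to 0.72 for Gbe1 and -0.49 to 1.28 for Ppp1r3c. For each gene, changes within its own interval cannot be told from none. The summed macrophage markers given above also differed in this comparison, with Cd68, Csf1r, C1qc and Lyz2 of the 8 called lower. So did the 5 T cell markers, at 0.796 to 3.08 CPM in ADF Crtc2 muscle and 14.4 to 33.9 CPM in ADF GFP muscle, with Cd3g called lower and at 0 in all 3 ADF Crtc2 libraries. The 4 B cell markers summed to 0.0 to 2.64 CPM in ADF Crtc2 muscle and 0.686 to 23.8 CPM in ADF GFP muscle, with Cd79b called lower. Of the 8 slow fibre markers, summed above, Tnnt1 fell by 1.66 and Tnni1 by 1.67 on the log2 scale (edgeR adjusted p = 0.0454 and 0.0153). The part of these lists in the comparison was not tested.

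In fed muscle, Crtc2 against GFP again gave 0 of 9 members (1 at an unadjusted p under 0.05), where 0.0% of all genes were called higher and 0.0% lower by edgeR, 871 had an unadjusted p under 0.05 and DESeq2 called 64. Gaa was the member with that unadjusted p, higher by 0.88 ± 0.30 (95% interval 0.24 to 1.51, edgeR adjusted p = 0.877). Its fed Crtc2 values of 119, 111 and 208 CPM overlapped the fed GFP values of 77.5, 114 and 47.0 CPM. Without the filter on low counts Gaa passed (0.0247), and with DESeq2 it did not (0.272). Averaged over both diets, all 9 estimates were above 0 and 0 of 9 passed, against 0.025% of all genes higher and 0.469% lower. The 4 with an unadjusted p under 0.05 were Gaa (0.51 ± 0.21), Ugp2 (0.37 ± 0.15), Phkg1 (0.31 ± 0.13) and Gyg (0.27 ± 0.12), at edgeR adjusted p-values of 0.391 to 0.421. Scaled by library totals, Pygm and Phka1 were below 0, at -0.01 and -0.04.

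**Figure D5:**
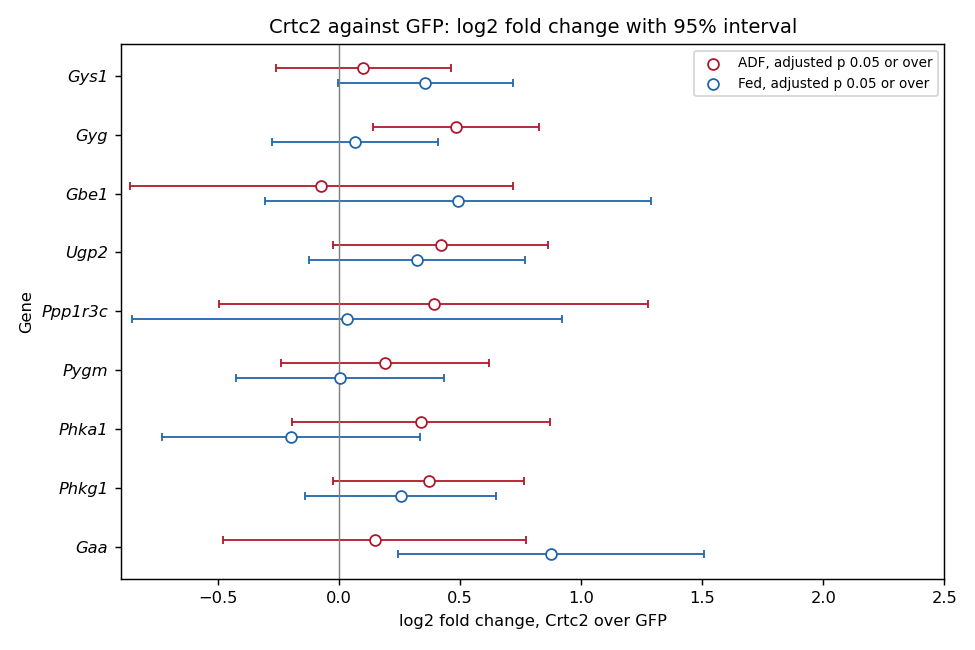
log2 fold change of Crtc2 over GFP with its 95% interval for the 9 genes, under ADF and in fed muscle; open points have an adjusted p of 0.05 or over, which holds for all. The intervals of Gyg under ADF (0.14 to 0.82) and of Gaa in fed muscle (0.24 to 1.51) lie above 0.

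Whether the diet response of the 9 genes differed with Crtc2 was tested by the interaction of diet and vector. It gave 0 of 9 members, 0 of them at an unadjusted p under 0.05, and 0.0% of all genes in each direction (edgeR, 1240 genes at an unadjusted p under 0.05, 111 genes with DESeq2). The estimates ran from -0.73 ± 0.42 for Gaa (95% interval -1.61 to 0.16) to 0.54 ± 0.36 for Phka1 (-0.21 to 1.29). The response of Gyg was larger with Crtc2 by 0.41 ± 0.23 (-0.07 to 0.90, edgeR adjusted p = 0.698), which did not pass.

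The members also varied together across libraries, as a description over 12 libraries that share the diet split. Gys1 and Ugp2 had a Pearson r of 0.92 in log2 CPM, Gbe1 and Ugp2 0.92, Gaa and Ppp1r3c 0.91 and Gaa and Pygm 0.89. Phka1 went most closely with Pygm (0.83), and Phkg1 lay apart, from -0.23 with Ugp2 to 0.54 with Phka1. Of 7524 genes averaging 10 CPM or more, predicted genes left out, the one most like Gys1 was the triglyceride lipase Pnpla2 (r = 0.99), followed by Ogdh and Nrap (both 0.98). For Pygm they were Mylk2, the myosin light chain kinase of skeletal muscle (0.98), the muscle phosphofructokinase Pfkm (0.97) and the lactate transporter Slc16a3 (0.96). Ugp2 was most like Spag9, Ppp1r3a and the fatty acid oxidation enzyme Acadl (all 0.98), and Gaa most like Nomo1, Galnt1 and Psmd2 (all 0.97). Gbe1 was most like Amot (0.97), Rab10 (0.96) and Tm9sf2 (0.95), Gyg like Polr2m, Ndrg2 and Dnajc27 (all 0.95), and Ppp1r3c like Acvr1b (0.97), Clip1 and the phosphatidate phosphatase Lpin1 (both 0.96). Phka1 was most like Atp8a1, Gpt2 and the lactate dehydrogenase Ldha (all 0.93), and Phkg1 like Sh3bgr, Selenow and Rps2 (all 0.94).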

How the data were processed

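RNA of tibialis anterior was extracted with TRIzol and RNeasy, and per the labels' protocols libraries were made with an NEBNext Ultra II directional kit and a TruSeq Stranded mRNA kit, not assigned to individual libraries. Whether kit and group coincide is thus not known, and the part of the kit in the results was not tested. The authors deposited raw counts per Ensembl gene. Subread 1.6.1 (featureCounts), HISAT2 2.0.5, DESeq2 1.18.1 and SAMtools 1.7 are listed, with the builds GRCm38 and mm10, per the submitters' processing notes. The strand setting is not given in the sources used here, so reads in the antisense overlaps named for Gys1 and Phkg1 cannot be assigned with certainty. Small counts (2 to 21) were even numbers in 68.9 to 74.7% of cases per library, so low counts may stand for fewer fragments, which was not tested.

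The test was run in edgeR 4.0.16 (R 4.3.3): TMM scaling, genes kept by filterByExpr (16007), a robust quasi-likelihood fit of the 4 group means over all 12 libraries, and Benjamini-Hochberg adjustment over all genes tested, threshold 0.05. Unlabelled values in parentheses after a change are adjusted p-values of this test. Standard errors (SE) derive from each log2 fold change and its F statistic, and 95% intervals use its residual degrees of freedom. TPM used exon lengths from GENCODE mouse release 21. Alternatives were other scalings and filters, DESeq2 1.42.0, a replicate block and leaving out each library. The ratios to Pygm and the share among genes of 81.4 CPM or more were added after the data had been seen. Members, lists and tests were chosen with earlier results of these data known. The genes named are the 9 members, every listed gene past the threshold in a comparison of 2 groups, Phkb, Ppp1r3a and Stbd1, the vector's gene and its partner, the other forms in each isoform family, overlapping genes on the opposite strand, marker genes past the threshold, and the 3 genes most like each member. Ppp1cc and Myh2 were named after their values were seen. A gene of these lists is not reported here and was left out of its list's counts.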

Additional observations from a re-analysis of the deposited data

How the results depend on the processing

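The 7 calls averaged over both vectors kept direction and threshold under every alternative run. Calls within 1 vector rest on 3 libraries a group, and those that changed are given with the gene. The counts for Crtc2 against GFP depended most on the tool and filter. In fed muscle 0 genes became 58 with no filter on low counts (1 member, Gaa), 64 with DESeq2 and 7 with the 6 libraries alone. Under ADF 116 became 385, 556 (1 member, Gyg) and 300. The interaction went to 67 with no filter and 111 with DESeq2, and Crtc2 averaged over both diets to 344 and 364, in place of 79. Scaled by library totals, 1 member, Phkg1, was lower under ADF averaged over both vectors.

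With each library left out in turn, counts ranged from 1129 to 1940 (ADF, Crtc2 muscle), 677 to 1230 (ADF, GFP muscle), 2322 to 2990 (ADF, averaged), 25 to 164 (Crtc2 under ADF), 0 to 18 (Crtc2, fed), 42 to 148 (Crtc2, averaged) and 0 to 3 (interaction), and members higher under ADF from 4 to 7, 3 to 5 and 7 to 8 in the first 3.

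Signs that changed were all of values that had not passed. With library totals, the log2 values were -0.034 for Phka1 (ADF, GFP muscle), -0.026 for Pygm (Crtc2, fed), -0.084, -0.0021 and -0.042 for Gys1, Pygm and Gaa (Crtc2 under ADF), -0.13 and -0.054 for Ugp2 and Phkg1 (interaction), and -0.014 and -0.039 for Pygm and Phka1 (Crtc2, averaged). With a mean of at least 10 CPM they were -0.040 for Phka1 (ADF, GFP muscle) and -0.014 for Pygm (Crtc2, fed). For Pygm in the same fed comparison DESeq2 and its size factors gave -0.00275 each.
With a library left out, they ranged as follows. Under ADF against fed: Phka1 -0.15 to 0.43 (GFP muscle) and Phkg1 -0.25 to 0.027 (Crtc2 muscle). For Crtc2 under ADF: Gaa -0.044 to 0.33, Gbe1 -0.22 to 0.0081, Gys1 -0.052 to 0.29 and Ppp1r3c -0.11 to 0.67. For Crtc2 in fed muscle: Gyg -0.021 to 0.19, Phka1 -0.43 to 0.21, Ppp1r3c -0.23 to 0.67 and Pygm -0.25 to 0.20. For Crtc2 averaged over both diets: Gbe1 -0.0013 to 0.42, Phka1 -0.048 to 0.28, Ppp1r3c -0.037 to 0.53 and Pygm -0.032 to 0.20. In the interaction: Phkg1 -0.049 to 0.24, Ppp1r3c -0.28 to 0.63, Pygm -0.016 to 0.44 and Ugp2 -0.13 to 0.38.
Deviations from the group mean had an r of -0.12 to 0.31 between libraries with the same number in different groups, with 1 of 18 pairs over 0.1. For other numbers it was -0.27 to 0.19. The labels do not say that numbers pair libraries, so these values cannot settle whether libraries were paired. A replicate block gave 6 members and 1664 genes in Crtc2 muscle, and 4 members and 1088 genes in GFP muscle, the members higher under ADF, and moved Pygm (Crtc2, fed) to -0.0085. The cause of these changes was not tested.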
